A study of Homo sapiens with 26 samples.

Results

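Genes of the proteasome were taken as every symbol made of PSM, a letter from A to G and a number, whose mean across all 26 libraries reached 1 FPKM. FPKM, the unit of the deposited table, counts fragments per length of transcript and per sequenced fragment of a library, which puts long and short genes on 1 scale. Among the table's 19704 symbols, 48 fitted the name and 46 the minimum as well. PSMA8, known from testis, was listed at 0 in every library, and PSMB11, known from thymus, averaged 0.0029 FPKM. The other 46 genes comprise 17 of the core particle (PSMA and PSMB), 20 of the regulatory particle (PSMC and PSMD), 4 activator genes (PSME), the inhibitor PSMF1 and 4 chaperones of core assembly (PSMG). None of the 46 was at 0 in any library.

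U2OS, a human osteosarcoma line, carried an Arntl::dLUC luciferase reporter of the circadian clock. Cells in medium of pH 6.3 were compared with cells in medium of pH 7.4, 13 libraries each, with 1 library per pH every 4 h from 4 to 52 h. Both media held 0.1 µM dexamethasone, which sets the clock at the start, with 5% serum, 25 mM PIPES and 25 mM HEPES. Both sets of dishes were sealed and kept in air without added carbon dioxide. The dishes of 28 to 52 h came from a first set of plates and those of 4 to 24 h from a second set treated a day later, so the day after the medium change and the plate set cannot be told apart. The plates of 4 h were harvested together with those of 28 h, those of 8 h with those of 32 h, and so on up to 24 and 48 h. No hour has a second library of the same pH, and nothing in the labels ties dishes to separate cultures. The p-values therefore measure the spread between hours. These are bulk samples of 1 reporter line, in which fewer cells and less RNA per cell cannot be told apart.

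Depth, estimated from the steps of low FPKM values, was 19.6 to 35.0 M fragments (M for mega) in 24 libraries, and 11.1 and 9.72 M in pH 6.3 at 8 h and pH 7.4 at 12 h. In 5 libraries the deviation from the mean of the 13 libraries of the same pH followed the GC content of the transcripts. The correlation across genes was beyond 0.5 in size. These were pH 6.3 at 20 h (0.67) and 40 h (-0.50) and pH 7.4 at 28 h (0.79), 44 h (-0.68) and 48 h (-0.74). Together 7 of the 13 hours held such a library. Of markers of the line's lineage, vimentin (VIM) averaged 649 ± 144 FPKM in pH 6.3 and 602 ± 34.3 FPKM in pH 7.4 (SD, n = 13 each), and RUNX2 24.8 and 24.0 FPKM. Neither was called, nor was SPP1 (7.79 and 6.16 FPKM). COL1A1 was lower, with 82.3 ± 54.7 FPKM in pH 6.3 and 136 ± 76.6 FPKM in pH 7.4 (log2 -0.78, limma adjusted p = 0.010), and so was ALPL, with 1.065 ± 0.24 and 3.42 ± 1.61 FPKM (-1.03, 3.19e-05). COL1A2 was below 1 FPKM. Leukocyte and endothelial markers averaged under 1 FPKM. Of the epithelial markers CDH1 averaged 0.454 FPKM over all libraries, and both that were tested were lower. EPCAM averaged 3.66 ± 1.06 FPKM in pH 6.3 and 6.10 ± 1.02 FPKM in pH 7.4 (log2 -0.63, limma adjusted p = 8.55e-04), and KRT5 1.02 ± 0.41 and 2.49 ± 1.36 FPKM (-0.71, 0.0029). The part of these marker differences in the results was not tested.

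The proteasome degrades proteins that carry ubiquitin chains. Its core particle is a barrel of stacked rings: outer rings of alpha subunits, which gate the entry, and inner rings of beta subunits, of which PSMB5, PSMB6 and PSMB7 cut peptide bonds. The regulatory particle caps the barrel. Its base holds the PSMC ATPases that unfold the substrate, and its lid removes the ubiquitin chain through PSMD14. When proteasome activity is short, the transcription factor NFE2L1, a protein of the endoplasmic reticulum, is processed and switches on proteasome genes through antioxidant response elements in their promoters. In interferon-treated and immune cells PSMB8, PSMB9 and PSMB10 replace the catalytic subunits.

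The promoters of some members that responded are shown because such elements lie there. Stretches upstream of the annotated start, free of exons, were read from RefSeq (GRCh38.p14) and are printed 5′ to 3′ on the strand of the gene. Capitals mark TGACNNNGC, the core of the antioxidant response element (reverse complement GCNNNGTCA), CCAAT, the box of NF-Y (ATTGG), and CCGGAAG, an ETS core (CTTCCGG). In the PSMD9 stretch an ETS match and an antioxidant match adjoin and form 1 capital run. PSMB3, PSMD9, PSMD3, PSMD12 and PSMA5 had higher expression at pH 6.3 at 28 to 52 h, and PSMC3, whose expression was lower at pH 6.3, is given for contrast. These genes were picked by hand and do not show how often members hold a match. PSMC4, PSMB5, PSMD7 and PSMD8, also higher at pH 6.3, hold no TGACNNNGC in their windows of 250 bases.
PSMB3, chr17:38752491-38752735, plus strand: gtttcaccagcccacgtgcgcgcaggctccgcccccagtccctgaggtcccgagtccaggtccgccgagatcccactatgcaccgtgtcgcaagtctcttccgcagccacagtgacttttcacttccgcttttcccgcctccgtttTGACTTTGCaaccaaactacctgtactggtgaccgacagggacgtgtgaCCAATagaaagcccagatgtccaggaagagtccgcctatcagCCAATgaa
PSMD9, chr12:121888540-121888730, plus strand: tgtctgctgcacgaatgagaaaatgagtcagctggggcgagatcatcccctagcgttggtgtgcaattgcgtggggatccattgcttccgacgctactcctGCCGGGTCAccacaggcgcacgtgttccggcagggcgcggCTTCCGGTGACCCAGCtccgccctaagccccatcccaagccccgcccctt
PSMD3, chr17:39980557-39980796, plus strand: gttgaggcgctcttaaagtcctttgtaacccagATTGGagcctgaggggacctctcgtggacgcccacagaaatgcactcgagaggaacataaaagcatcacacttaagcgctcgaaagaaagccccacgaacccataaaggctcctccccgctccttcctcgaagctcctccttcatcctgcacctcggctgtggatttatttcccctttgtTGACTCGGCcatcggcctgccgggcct
PSMD12, chr17:67366628-67366827, minus strand: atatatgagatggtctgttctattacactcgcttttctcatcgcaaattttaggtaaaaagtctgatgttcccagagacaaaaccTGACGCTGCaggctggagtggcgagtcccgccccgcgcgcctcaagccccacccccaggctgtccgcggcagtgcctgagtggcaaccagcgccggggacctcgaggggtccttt
PSMA5, chr1:109426449-109426698, minus strand: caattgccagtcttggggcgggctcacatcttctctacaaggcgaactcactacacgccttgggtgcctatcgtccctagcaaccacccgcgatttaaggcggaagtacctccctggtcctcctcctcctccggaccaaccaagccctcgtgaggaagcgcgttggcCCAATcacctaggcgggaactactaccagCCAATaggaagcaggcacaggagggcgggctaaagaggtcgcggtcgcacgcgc
PSMC3, chr11:47426474-47426689, minus strand: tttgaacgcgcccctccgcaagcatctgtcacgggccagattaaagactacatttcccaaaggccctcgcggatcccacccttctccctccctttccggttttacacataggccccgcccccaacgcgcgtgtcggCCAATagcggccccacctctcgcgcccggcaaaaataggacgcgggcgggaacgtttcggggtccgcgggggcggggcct

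Promoter windows of 250 bases were found for 40 of the 46 members; those of PSMA7, PSMB1, PSMB6, PSMB7, PSMD4 and PSMG3 were not used here. TGACNNNGC, on either strand, was present in 11 of the 40 member windows (27.5%), in 12.1% of the windows of 9088 expressed genes (mean of 1 FPKM or more) and in 11% of all 27305 windows. These 11 belong to PSMB3, PSMB9, PSMD3, PSMD5, PSMD9, PSMD12, PSME1, PSME2, PSME4, PSMG1 and PSMG2. CCAAT was present in 42.5% of member windows, 35.4% of those of expressed genes and 33.0% of all windows, and CCGGAAG in 22.5%, 16.6% and 8.82%. A match is a description of the sequence and not a binding site. PSMB3 and PSMG1 both hold TGACNNNGC and CCAAT, and the effects of acid on them had opposite signs. Among members with a window, TGACNNNGC was in 3 of 9 called higher over all hours and 1 of 11 called lower. CCAAT was in 5 and 6 of these, and CCGGAAG in 4 and 0. These counts are small and carry no test.

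Proteasome genes differed in both directions between acid and neutral medium. Over the 13 hours 10 of the 46 were higher and 11 lower at pH 6.3 (limma on log2(FPKM + 1), hour as a block, Benjamini-Hochberg adjusted p under 0.05 over 11838 genes), where 22.4% of all genes tested were higher and 37.3% lower. In percent, 21.7% of the members were higher, which is near the share of all genes, and 23.9% were lower. The median effect of acid was 0.03 (log2) over the members and -0.12 over all genes. The core had 4 genes higher and 3 lower, the regulatory particle 5 higher and 6 lower, the activators 1 and 1, and the core chaperones 0 higher and 1 lower. PSMC4, PSME4 and PSMA5 had the largest positive effects, and PSMG1, PSME3 and PSMA4 the largest negative ones. No member's values at pH 6.3 and pH 7.4 were separate over all 13 hours, and the share of all genes for this is not given here. PSMB3 and PSMD7 were higher at pH 6.3 at every hour, 2 of 46 where 4.43% of all genes were, and PSMG1, PSME3, PSMA4 and PSMD2 lower at every hour, 4 of 46 where 8.19% were. After quantile normalization or a correction for GC content higher calls made up 48.1% and 49.2% of all calls over the genes tested, against 37.5% in the values as deposited, and the median over all genes was -0.02 and -0.01. None of the 21 members called changed sign under either, but with the GC correction 20 members were called higher and 9 lower, where 31.6% of all genes were higher and 32.6% lower. Those called higher with the GC correction but not in the values as deposited were PSMA6, PSMA7, PSMB1, PSMB9, PSMC6, PSMD3, PSMD10, PSMD12, PSME1 and PSMG2. PSMA2 and PSMD11 were no longer called lower.

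**Figure D1:**
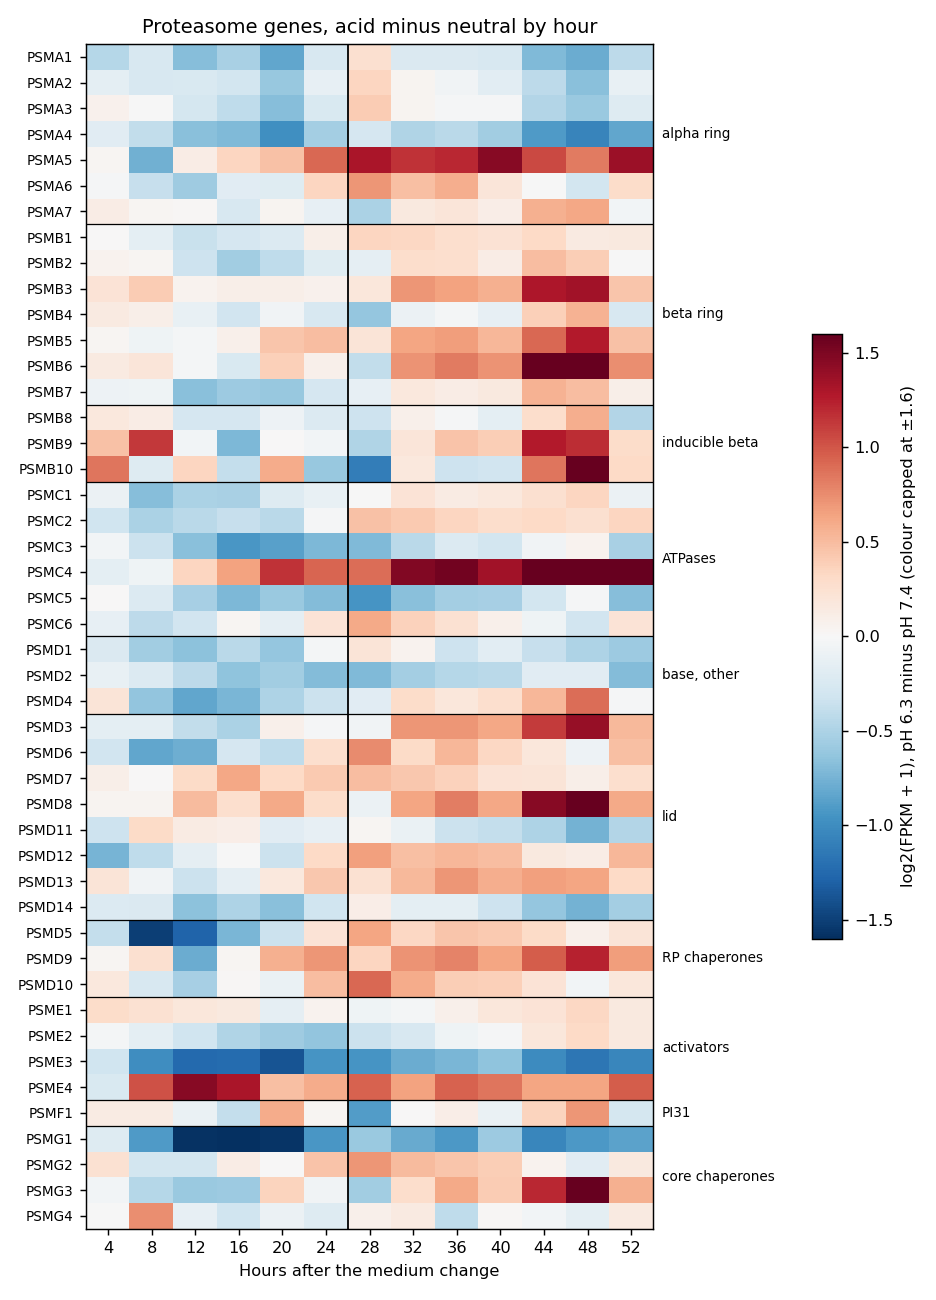
Each row is 1 of the 46 members, grouped by class, each column an hour from 4 to 52 h, and colour gives the log2(FPKM + 1) difference of pH 6.3 minus pH 7.4 in that hour. PSME3 and PSMG1 are lower at pH 6.3 at each hour, PSMC4 and PSMA5 become higher with the hours, and PSMD5 turns from lower to higher.

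The effect of acid moved with the hours. At 4 h the median difference over the members was -0.01, it was lowest at 12 h (-0.32) and 16 h (-0.31), reached 0.06 at 28 h and lay between 0.15 and 0.29 from 32 to 52 h. Over all genes the medians at the same hours ran from -0.26 to 0.05. The regulatory particle was lowest at 12 h (-0.47) and highest at 36 h (0.36), and the core was lowest at 16 h (-0.30) and highest at 48 h (0.55). In the core the values of 44 h (0.49) and 48 h (0.55) stand above the others, but its parts were split there. The alpha ring was at -0.42 and -0.60, with 2 of 7 genes higher at pH 6.3 each time. The constitutive beta ring was at 0.56 and 0.55, with 7 of 7 higher, and the 3 inducible beta genes at 0.86 and 1.18. At 52 h the alpha ring was at -0.12 and the constitutive beta ring at 0.15. Both pH 7.4 libraries of 44 and 48 h are among the 5 with a GC deviation, and the rings differ in GC content. Transcripts of the alpha genes had 39.6% to 51.2% GC, of the constitutive beta genes 44.5% to 54.9%, and of the inducible beta genes 53.2% to 62.0%. The part of GC content in the result was not tested.

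**Figure D2:**
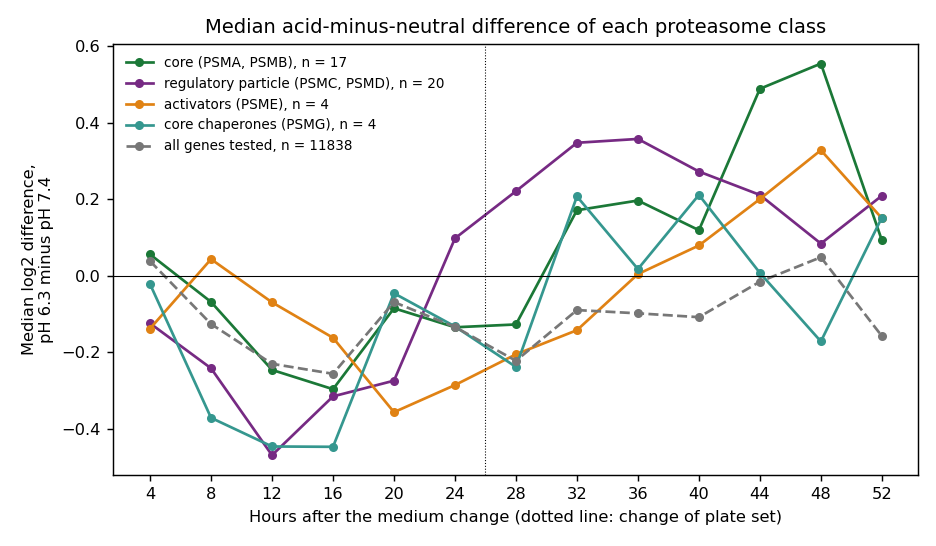
Median log2(FPKM + 1) difference, pH 6.3 minus pH 7.4, by hour in h for the classes of members and for all genes tested. The regulatory particle goes from -0.47 at 12 h to 0.36 at 36 h, and the core from -0.30 at 16 h to 0.55 at 48 h. At 48 h the alpha ring of the core, not drawn apart, was at -0.60 and the constitutive beta ring at 0.55.

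Within 28 to 52 h, 19 members were higher and 9 lower at pH 6.3, where 27% of all genes were higher and 36.4% lower. The regulatory particle accounted for 11 of those higher and the core for 5. The median was 0.20 over the members and -0.10 over all genes. In 12 members the values at pH 6.3 and pH 7.4 were separate over these 7 hours, with PSMA5, PSMB3, PSMC2, PSMC4, PSMD7, PSMD9, PSMD12 and PSME4 higher and PSMA4, PSMC5, PSME3 and PSMG1 lower. Such separation, with pH 6.3 higher, was found in 16.9% of all genes, and with pH 6.3 lower in 23.4%. Without the 28, 40, 44 and 48 h pairs the 3 hours left gave 22 higher and 9 lower. The shares of all genes in that fit are not given here, so these counts have no background beside them.

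Within 4 to 24 h, 1 member was higher and 14 lower at pH 6.3, where 8.57% of all genes were higher and 18.1% lower. Of these 14, 8 belong to the regulatory particle: PSMC2, PSMC3, PSMC5, PSMD1, PSMD2, PSMD4, PSMD5 and PSMD14. The others are the core genes PSMA1, PSMA4 and PSMB7, the activators PSME2 and PSME3, and PSMG1. The median was -0.16 over the members and -0.14 over all genes. These counts rest on 6 hours, and without the 12, 16 or 20 h pair 6, 5 and 6 members were called lower, and without both the 8 and 12 h pairs 1 was. With any single hour left out, PSMA1, PSMA4, PSMC3, PSME3 and PSMG1 kept their call. Under the GC correction 5 were higher and 5 lower, near the shares of all genes (13.6% and 11.4%).

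The effect of acid at 28 to 52 h minus that at 4 to 24 h was tested directly. It was positive in 39 of the 46 members, and in 6665 of all 11838 genes. Among the members it was past the threshold in 15, all with a positive difference. Of all genes 10.5% were past it with a positive and 6.56% with a negative difference. At an unadjusted p under 0.05 it was positive in 22 members and negative in 1, and limma without a trend in the mean called 13 and 0. The shares above do not apply to these counts. Shares of all genes at an unadjusted p were not counted, and those of the fit without a trend are not given here. The median difference was 0.34 over the members and 0.07 over all genes. Of the 15, 9 belong to the regulatory particle and 6 to the core, and no activator or chaperone is among them. With the round of harvest as a block, 7 of the 15 were called (PSMA5, PSMB5, PSMC2, PSMC4, PSMD3, PSMD4 and PSMD5), where 4.76% of all genes were past the threshold with a positive and 3.09% with a negative difference. The other 8 had a limma adjusted p of 0.0593 to 0.105 there, in a fit with fewer residual degrees of freedom. Without the 8 and 12 h pairs, which hold both libraries of low depth, 5 calls were left (PSMA5, PSMB7, PSMC2, PSMD3 and PSMD5). Without all 7 hours that hold a shallow or GC-deviating library none of the 46 was called, 12 had an unadjusted p under 0.05, the median was 0.27, and 1 gene of all 11838 was called higher. Fitted as a slope per 24 h, the difference rose in 18 members and fell in 1 (PSMD11, -0.34 per 24 h, a call lost without the 8 or 48 h pair at limma adjusted p of 0.065 and 0.056), where 15.5% of all genes rose and 10.8% fell. With the harvest block the slope gave the same counts as the difference between windows, 7 and 0.

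**Figure D3:**
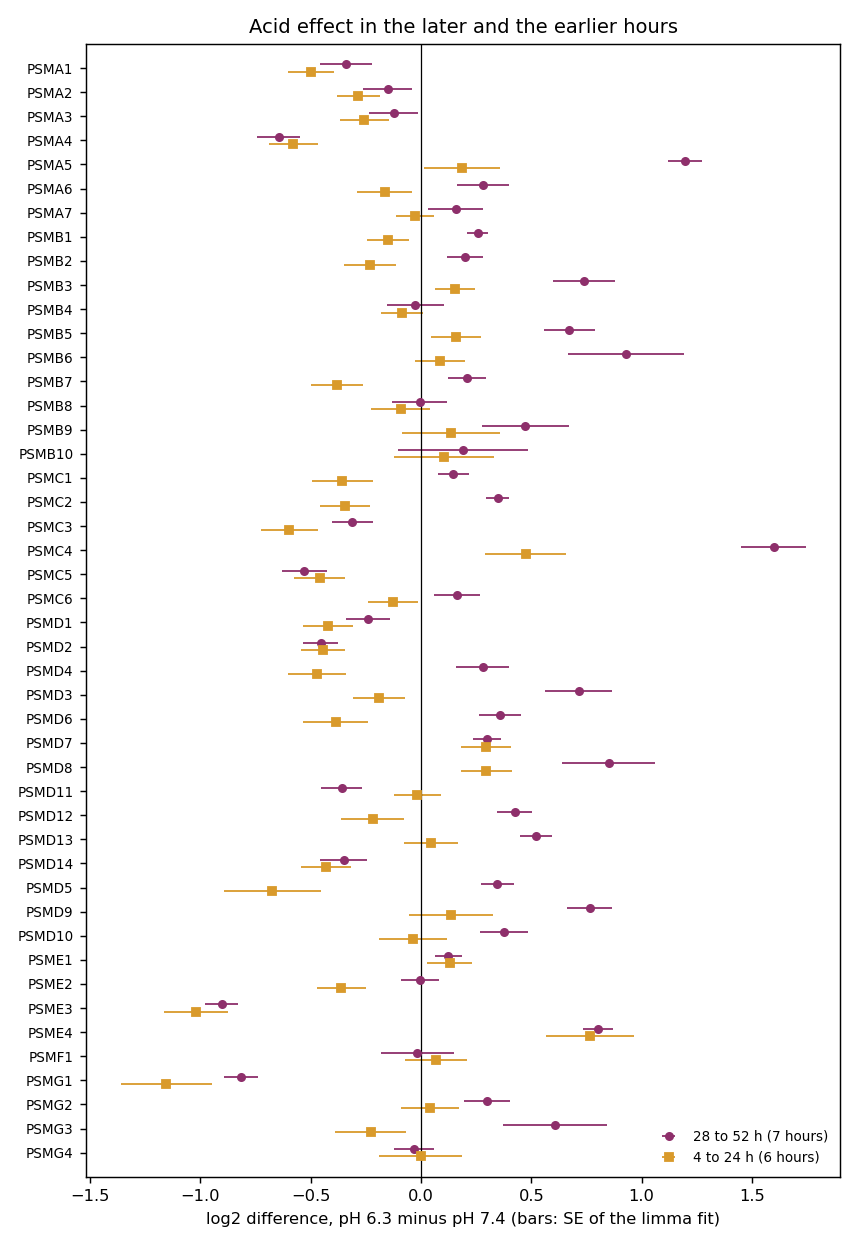
Acid effect of each member as log2 difference, pH 6.3 minus pH 7.4, within 28 to 52 h (circles) and within 4 to 24 h (squares), with the SE of the limma fit as bars. PSMC4, PSMA5, PSMD5 and PSMD3 have their circle furthest right of their square, and PSME3, PSMG1 and PSMA4 are left of 0 in both.

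Among alpha subunits of the core PSMA5 and PSMA4 moved in opposite directions. PSMA5 (ENSG00000143106, GRCh38 chr1:109399031-109426427, minus strand) ran from 226 to 793 FPKM at pH 6.3, with a median of 634, and from 269 to 385 at pH 7.4, with a median of 323. At pH 6.3 it was lowest at 8 h and highest at 40 h, and from 16 h on each pH 6.3 value lay above all pH 7.4 values. It averaged 577 ± 176 FPKM in pH 6.3 and 331 ± 38.6 FPKM in pH 7.4 (SD, n = 13 each), a log2 difference of 0.73 ± 0.16 (SE, limma adjusted p = 9.64e-04). Within 28 to 52 h the difference was 1.20, with means 2.30 times as high at pH 6.3, and within 4 to 24 h 0.18 (limma adjusted p = 0.44). PSMA5 was also the most abundant member, at 454 FPKM over all libraries.

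PSMA4 (ENSG00000041357, chr15:78540405-78552419, plus strand) ran from 138 to 267 FPKM at pH 6.3, with a median of 197, and from 246 to 322 at pH 7.4, with a median of 298. It was lower at pH 6.3 at each of the 13 hours, and the gap at 52 h (138 and 246 FPKM) was wider than at 4 h (267 and 304 FPKM). The log2 difference was -0.61 ± 0.08 (SE, limma adjusted p = 8.36e-06). PSMA1 averaged 183 ± 24.6 FPKM in pH 6.3 and 243 ± 30.1 FPKM in pH 7.4 and was lower at 12 of 13 hours (log2 -0.41, limma adjusted p = 5.18e-04). PSMA2 was lower by a small margin (log2 -0.21, limma adjusted p = 0.025), a call lost without the 20, 44 or 48 h pair (limma, adjusted p of 0.057, 0.052 and 0.054), without the 7 hours of doubtful libraries (0.24) and under the GC correction (0.65). PSMA2 also has 3 named pseudogenes in GENCODE 29 and a second row in the table under another identifier, at a mean of 7.56 FPKM. PSMA3, PSMA6 and PSMA7 did not pass the test, with log2 differences of -0.19, 0.07 and 0.07.

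Of the 7 constitutive beta subunits 3 were higher at pH 6.3 and none lower, where 22.4% of all genes were higher and 37.3% lower. The difference between the hour windows was positive in 7 of 7, and in 6665 of all 11838 genes. PSMB6, which cuts after acidic residues, averaged 98.3 ± 19.3 FPKM in pH 6.3 and 70.0 ± 22.6 FPKM in pH 7.4 (SD, n = 13 each; log2 0.54 ± 0.18, SE, limma adjusted p = 0.017). Its lowest values at pH 7.4 were 37.6 FPKM at 44 h and 27.8 FPKM at 48 h, the GC-deviating libraries, and the call was lost without the 7 hours named above (log2 0.38, limma adjusted p = 0.077). PSMB5, the chymotrypsin-like subunit, ran from 112 to 159 FPKM at pH 6.3 (median 130) and from 53.4 to 130 at pH 7.4 (median 106). It was near 130 FPKM in both media at 4 h, at 129 FPKM in pH 6.3 and 127 FPKM in pH 7.4, and at 52 h at 120 and 86.9 FPKM. Its effect of acid was 0.43 (limma adjusted p = 0.002) and was 0.40 without the 7 hours (limma adjusted p = 0.023). PSMB3, a structural subunit, was higher at 13 of 13 hours, at 186 to 258 FPKM in pH 6.3, against 85.5 to 199 FPKM in pH 7.4 (log2 0.47, limma adjusted p = 0.0019).

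PSMB7, the trypsin-like subunit, did not pass the test over all hours (log2 -0.06) but had opposite signs in the windows. At pH 6.3 it had a median of 131 FPKM at 28 to 52 h and of 108 FPKM at 4 to 24 h, and at pH 7.4 of 118 and 145 FPKM. The later hours gave 0.21 (limma adjusted p = 0.061) and the earlier ones -0.38 (0.038), a call lost without the 12, 16, 20 or 24 h pair (0.0663 to 0.127). PSMB1, a structural subunit, was higher within 28 to 52 h (log2 0.26, limma adjusted p = 0.0015). PSMB2 and PSMB4, also structural, were not called in either window, with 0.20 and -0.03 within 28 to 52 h and -0.23 and -0.09 within 4 to 24 h.

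The inducible catalytic subunits did not pass the test. PSMB8 averaged 23.8 ± 2.0 FPKM in pH 6.3 and 24.8 ± 4.19 FPKM in pH 7.4, PSMB9 17.4 ± 4.85 and 13.6 ± 3.56 FPKM, and PSMB10 5.46 ± 1.92 and 4.89 ± 2.0 FPKM (SD, n = 13 each). Their log2 differences were -0.05, 0.32 and 0.15, with limma adjusted p of 0.68, 0.092 and 0.52. PSMB9 was the only one of these called higher under the GC correction (0.44, adjusted p = 0.00726 by limma). PSMB8 and PSMB9 share exon sequence on opposite strands, and the strand setting of the counting is not given in the sources used here. Set against the subunit it replaces, PSMB8 was lower relative to PSMB5. Within 28 to 52 h the ratio of their FPKM ran from 0.169 to 0.198 at pH 6.3 and from 0.248 to 0.364 at pH 7.4, with no overlap. Over all 13 hours that ratio was lower at pH 6.3 at 11. PSMB9 to PSMB6 was likewise lower at 7 of 7 later hours (medians 0.176 and 0.248) and at 11 of 13 in all, though its ranges overlapped. PSMB10 to PSMB7 was lower at 5 of 13. These ratios carry no test, and the neutral libraries of 44 and 48 h hold the lowest PSMB5 and PSMB6 values.

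**Figure D4:**
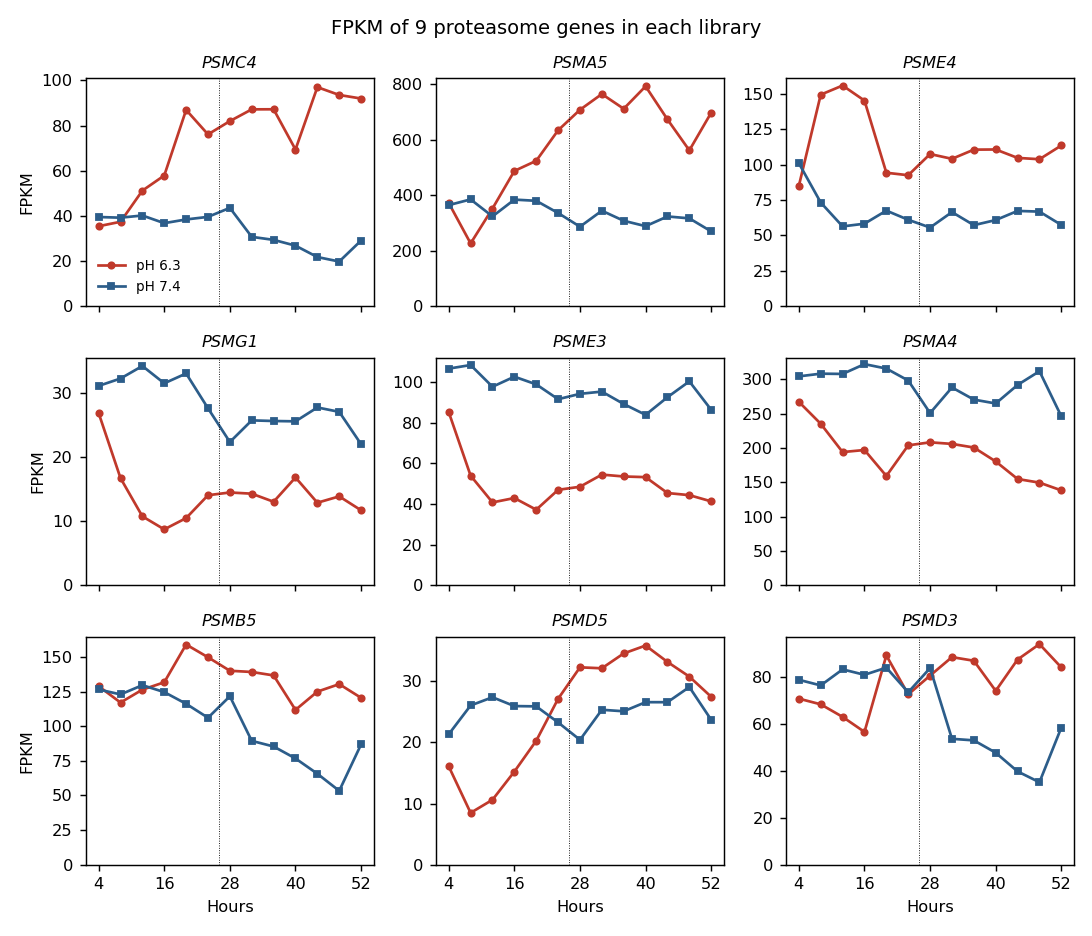
FPKM of selected members by hour in h, in pH 6.3 and pH 7.4, 1 point per library and a panel per gene. PSMC4 and PSMA5 separate between the media in the later hours, and PSMG1 and PSME3 are lower at pH 6.3 from the first hours on.

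In the base of the regulatory particle the ATPases split. PSMC4 (ENSG00000013275, chr19:39971005-39981441, plus strand) ran from 35.4 to 97.0 FPKM at pH 6.3, with a median of 81.9, and from 19.7 to 43.5 at pH 7.4, with a median of 36.7. At 4 h it was at 35.4 FPKM in pH 6.3 and 39.4 FPKM in pH 7.4, at 20 h at 86.9 and 38.4 FPKM, and at 52 h at 91.9 and 29.03 FPKM. From 12 h on each pH 6.3 value lay above all pH 7.4 values. The means were 73.3 ± 21.3 FPKM in pH 6.3 and 33.4 ± 7.64 FPKM in pH 7.4 (SD, n = 13 each; log2 1.08 ± 0.18, SE, limma adjusted p = 1.16e-04), the largest positive effect among the members. Acid shifted it by 1.598 at 28 to 52 h and by 0.48 at 4 to 24 h (log2, limma adjusted p = 2.21e-05 and 0.077), and by 1.01 without the 7 hours of doubtful libraries (0.0097).

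PSMC5 and PSMC3 were lower at pH 6.3. PSMC5 averaged 145 ± 32.7 FPKM in pH 6.3 and 204 ± 36.4 FPKM in pH 7.4 (log2 -0.50 ± 0.08, SE, limma adjusted p = 8.11e-05) and PSMC3 125 ± 20.4 and 171 ± 31.2 FPKM (log2 -0.44), and each was lower at 12 of 13 hours. PSMC2 was higher at 28 to 52 h (log2 0.35, limma adjusted p = 3.50e-04) and lower at 4 to 24 h (-0.34, 0.045). In the later hours it lay at 67.5 to 80.4 FPKM in pH 6.3 and 56.4 to 61.2 FPKM in pH 7.4, without overlap. Its call at 4 to 24 h was lost without the 8, 12, 16 or 20 h pair (limma adjusted p of 0.105 to 0.134). PSMC1 and PSMC6 were not called in either window. PSMC1 has 13 named pseudogenes in GENCODE 29, so its values are uncertain. The large scaffold subunits of the base, PSMD2 and PSMD1, were lower as well. PSMD2 averaged 251 ± 35.9 FPKM in pH 6.3 and 344 ± 54.9 FPKM in pH 7.4 and was lower at 13 of 13 hours (log2 -0.45, limma adjusted p = 3.47e-05), and PSMD1 93.1 ± 19.4 and 116 ± 19.1 FPKM (log2 -0.32). The PSMD1 call was lost without the 7 hours of doubtful libraries (-0.26, limma adjusted p = 0.077). The ubiquitin receptor PSMD4 was not called at 28 to 52 h (log2 0.28, limma adjusted p = 0.068) and was lower at 4 to 24 h (-0.47, 0.028), a call lost without the 8, 12, 16, 20 or 24 h pair (0.0536 to 0.0958).

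All 8 lid subunits with a PSMD symbol passed the test within 28 to 52 h. At pH 6.3, 6 of them were higher and 2 lower (PSMD11 and PSMD14). Of the 8, PSMD14 alone passed the test within 4 to 24 h. Of all genes tested 27% were higher and 36.4% lower in the later hours, and 8.57% and 18.1% in the earlier ones. The PSMD14 calls were lost without the 52 h pair in the later hours (limma adjusted p = 0.0503) and without the 12, 16 or 20 h pair in the earlier ones (0.0688 to 0.0819). PSMD8 averaged 105 ± 14.1 FPKM in pH 6.3 and 71.2 ± 19.3 FPKM in pH 7.4 and was higher at 12 of 13 hours (SD, n = 13 each; log2 0.59 ± 0.14, SE, limma adjusted p = 0.0019). PSMD3 had 80.6 FPKM in pH 6.3 and 73.5 FPKM in pH 7.4 as medians over all hours and was not called (log2 0.30, limma adjusted p = 0.094). From 32 to 52 h it lay between 74.1 and 94.0 FPKM in pH 6.3 and between 35.2 and 58.5 FPKM in pH 7.4. Up to 28 h it lay between 56.6 and 89.2 FPKM in pH 6.3 and between 73.5 and 84.0 FPKM in pH 7.4. PSMD7, a partner of the deubiquitinase, was higher at 13 of 13 hours by the same log2 difference of 0.30 in both windows. PSMD13 was higher (log2 0.30), and PSMD6 and PSMD12 passed the test within 28 to 52 h but not within 4 to 24 h (0.36 and 0.42, limma adjusted p = 0.0096 and 0.0013). PSMD14, the deubiquitinase itself, averaged 65.8 ± 9.96 FPKM in pH 6.3 and 85.8 ± 7.34 FPKM in pH 7.4 and was lower at 12 of 13 hours (log2 -0.39, limma adjusted p = 5.17e-04). PSMD11 was lower (log2 -0.20, limma adjusted p = 0.049), a call lost without the 4, 20, 24, 32, 36, 40, 44, 48 or 52 h pair (adjusted p 0.0629 to 0.105 by limma), without the 7 hours (0.10) and under the GC correction (0.49).

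Each of the 3 chaperones of the regulatory particle with a PSMD symbol, PSMD5, PSMD9 and PSMD10, was higher within 28 to 52 h, where 27% of all genes were. PSMD5 was the other member called in opposite directions in the windows, 2 of 46 with PSMC2, where 0.397% of all genes were. It ran from 8.48 to 35.8 FPKM at pH 6.3, with a median of 27.4, and from 20.4 to 29.03 at pH 7.4, with a median of 25.9. At pH 6.3 it was lowest at 8 h, the library of low depth, at 10.6 FPKM at 12 h, and highest at 40 h, while the pH 7.4 values were within that narrower range. Its difference was 0.35 (limma adjusted p = 0.0035) within 28 to 52 h and -0.67 (0.046) within 4 to 24 h, and the earlier call was lost without the 8, 12, 16 or 20 h pair (limma adjusted p of 0.0809 to 0.14). PSMD9 averaged 35.9 ± 6.64 FPKM in pH 6.3 and 25.6 ± 5.44 FPKM in pH 7.4 (log2 0.47, limma adjusted p = 0.006). PSMD10 was at 0.19 over all hours (limma adjusted p = 0.14) and 0.38 within 28 to 52 h (0.015).

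The activators bind the core in place of, or beside, the regulatory particle, and 2 of the 4 had effects of acid in opposite directions. PSME4, a nuclear activator, ran from 85.0 to 156 FPKM at pH 6.3 (median 108) and from 55.5 to 101 FPKM at pH 7.4 (median 61.0). At 4 h it was at 85.0 FPKM in pH 6.3 and 101 FPKM in pH 7.4, and at the other 12 hours it was higher at pH 6.3, most at 12 h (156 and 56.4 FPKM). The log2 difference was 0.79 ± 0.11 (SE, limma adjusted p = 2.21e-05), with 0.80 at 28 to 52 h and 0.77 at 4 to 24 h, the last call lost without the 8, 12 or 16 h pair (limma adjusted p of 0.053 to 0.075). PSME3, which makes the nuclear activator of ubiquitin-independent degradation (ENSG00000131467, chr17:42824385-42843758, plus strand), ran from 37.2 to 85.2 FPKM at pH 6.3 (median 47.0) and from 83.9 to 108 FPKM at pH 7.4 (median 95.3). The 1 pH 6.3 value within the range of pH 7.4 was that of 4 h. Its log2 difference was -0.96 ± 0.08 (SE, limma adjusted p = 3.43e-07), with -0.90 within 28 to 52 h and -1.02 within 4 to 24 h. PSME3 overlaps exons of BECN1 and PSME4 those of ACYP2 on the other strand.

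PSME1 and PSME2, which together form the interferon-inducible activator, did not pass the test over all hours. PSME1 averaged 107 ± 16.6 FPKM in pH 6.3 and 97.4 ± 11.8 FPKM in pH 7.4 (log2 0.13, limma adjusted p = 0.075), and PSME2 121 ± 19.8 and 136 ± 20.9 FPKM (log2 -0.17, limma adjusted p = 0.091). PSME2 was lower within 4 to 24 h (-0.36, limma adjusted p = 0.037), a call lost without the 12, 16, 20 or 24 h pair (limma adjusted p of 0.0901 to 0.12). PSMF1, an inhibitor and adaptor of the core, averaged 43.8 ± 9.48 FPKM in pH 6.3 and 43.6 ± 12.1 FPKM in pH 7.4 (log2 0.02 ± 0.11, SE).

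The chaperones PSMG1 and PSMG2 work as a pair in assembling the alpha ring, and of the pair PSMG1 passed the test. PSMG1 (ENSG00000183527, chr21:39174769-39183851, minus strand) ran from 8.75 to 26.9 FPKM at pH 6.3 (median 13.9) and from 22.1 to 34.3 FPKM at pH 7.4 (median 27.7). It was lower at pH 6.3 at 13 of 13 hours. The values were 26.9 FPKM in pH 6.3 and 31.2 FPKM in pH 7.4 at 4 h, and 8.75 and 31.6 FPKM at 16 h. The log2 difference was -0.97 ± 0.12 (SE, limma adjusted p = 6.29e-06), the largest negative effect among the members. PSMG2 averaged 77.7 ± 12.0 FPKM in pH 6.3 and 68.0 ± 6.38 FPKM in pH 7.4 (log2 0.18, limma adjusted p = 0.097). It was called higher over all hours without the 7 hours of doubtful libraries (0.32, limma adjusted p = 0.028) and under the GC correction (0.30, 0.0051). The chaperones PSMG3 and PSMG4, which form a second pair, were not called over all hours, at 28.0 ± 6.86 FPKM in pH 6.3 and 24.2 ± 7.02 FPKM in pH 7.4 for PSMG3 and at 4.33 ± 0.81 and 4.38 ± 0.69 FPKM for PSMG4 (SD, n = 13 each). Within 28 to 52 h PSMG2 (0.30) and PSMG3 (0.61) were called higher at limma adjusted p of 0.034 and 0.048. The PSMG2 call was lost without the 28, 32, 36 or 40 h pair (adjusted p 0.0665 to 0.0896 by limma), and that of PSMG3 without the 32, 36, 40, 44, 48 or 52 h pair (0.0637 to 0.118).

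Within pH 7.4 15 of the 46 members fell in the later hours and none rose. At 28 to 52 h minus 4 to 24 h, 43 of the 46 differences were negative with a median of -0.28. Over all genes 6158 of 11838 were negative, with a median of -0.01. By limma 15 members were called lower and 0 higher (27 and 0 at an unadjusted p under 0.05, 11 and 0 without a trend in the mean), where 3.14% of all genes were lower and 4.44% higher. Of the 7 constitutive beta subunits 6 were called lower: PSMB5 (-0.58), PSMB3 (-0.47), PSMB7 (-0.40), PSMB4 (-0.37), PSMB1 (-0.33) and PSMB2 (-0.30). PSMD3 had the lowest value (-0.62, limma adjusted p = 0.0032). The others were PSMA7, PSMC1, PSMC2, PSMC3, PSMC5, PSMD1, PSMD4 and PSME2. PSMB1, PSMB3, PSMB5, PSMB7, PSMC1 and PSMD3 held their call in each fit with 1 pair left out, and each of the other 9 lost it in at least 1 such fit. With the round of harvest as a block 14 were lower, where PSMB2 and PSMB4 were not called (limma adjusted p of 0.0593 and 0.0584) and PSME1 was (0.0389). Without the 8, 12, 16, 20, 40, 44 or 48 h pair the count was 6 to 9, without the 28 h pair 23, and without the 7 hours of doubtful libraries 0, with 10 at an unadjusted p under 0.05 and 43 of 46 still negative.

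Within pH 6.3 the later hours had 8 members higher and 6 lower, where 25% of all genes were higher and 16.6% lower. The 8 higher were PSMD5 (1.03, limma adjusted p = 1.84e-05), PSMA5 (0.76), PSMC4 (0.66), PSMD6 (0.52), PSMD12 (0.45), PSMC2 (0.41), PSMD13 (0.35) and PSMD9 (0.33), and the 6 lower PSMD11 (-0.68, limma adjusted p = 6.46e-05), PSMC5 (-0.45), PSMB4 (-0.31), PSMD2 (-0.30), PSMD7 (-0.27) and PSME1 (-0.27). Summed over the 46 members, FPKM made up 0.874% ± 0.043 of the column at 28 to 52 h and 0.802% ± 0.043 at 4 to 24 h in pH 6.3, and 0.763% ± 0.036 and 0.873% ± 0.023 in pH 7.4 (SD, n = 7 later and 6 earlier hours). In both media, plate set and hours cannot be told apart here. Without the 8 and 12 h pairs 5 were called higher and 2 lower within pH 6.3. With 1 pair left out, PSMB4 lost its call in 6 fits, PSMD9 in 10 and PSMD7 without the 16 h pair (limma adjusted p = 0.063). With the round of harvest as a block PSMD9 was not called (limma adjusted p = 0.10) and PSMD10 was (0.0398).

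**Figure D5:**
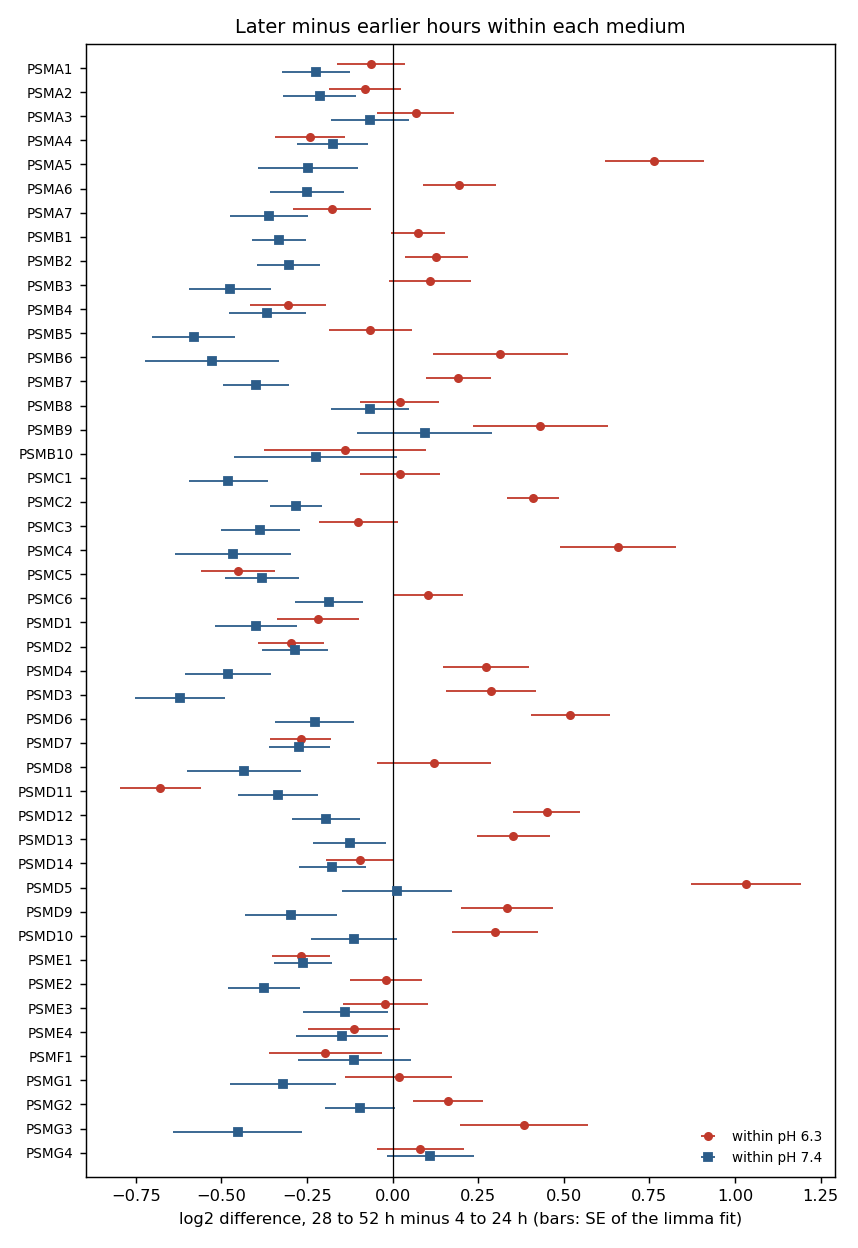
Log2 difference of 28 to 52 h minus 4 to 24 h for each member within pH 6.3 and within pH 7.4. In pH 7.4 43 of 46 lie below 0, and in pH 6.3 27 lie above 0, led by PSMD5 at 1.03. Of all 11838 genes 6158 were below 0 in pH 7.4 and 6469 above 0 in pH 6.3.

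Genes of proteasome parts, partners, assembly and nuclear import under other names gave 3 higher and 1 lower of 8 tested over all hours. Over the same hours 22.4% of all genes were higher and 37.3% lower. AKIRIN2 and IPO9, known for the import of proteasomes into the nucleus, had opposite effects. AKIRIN2 ran from 25.2 to 49.2 FPKM at pH 6.3 and from 17.9 to 24.1 FPKM at pH 7.4 and did not overlap (log2 0.77, limma adjusted p = 2.24e-06). IPO9 ran from 13.4 to 57.2 FPKM at pH 6.3 and from 38.3 to 79.0 FPKM at pH 7.4, and after 4 h each pH 6.3 value lay below all pH 7.4 values (log2 -1.50, limma adjusted p = 6.90e-07). The ubiquitin receptor ADRM1 averaged 62.9 ± 24.7 FPKM in pH 6.3 and 44.3 ± 21.5 FPKM in pH 7.4 (log2 0.59, limma adjusted p = 0.012), and SHFM1, the small lid subunit, was higher by 0.19 (0.029). POMP, the maturation factor of the core, averaged 73.6 ± 9.03 and 80.7 ± 6.74 FPKM (log2 -0.14, limma adjusted p = 0.14). PAAF1, TXNL1 and KIAA0368 were not called.

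NFE2L1 itself was slightly lower, at 108 ± 5.85 FPKM in pH 6.3 and 120 ± 11.9 FPKM in pH 7.4 (SD, n = 13 each; log2 -0.15, limma adjusted p = 0.034). Of the 10 genes of its activation and its partners 6 were higher and 1 lower, where 22.4% of all genes were higher and 37.3% lower. MAFF, a small MAF partner, ran from 9.51 to 44.1 FPKM at pH 6.3 and from 1.52 to 11.3 FPKM at pH 7.4, was highest at 4 h in both, and differed by a log2 of 1.59 (limma adjusted p = 2.53e-05). MAFK was higher by 1.31 (limma adjusted p = 7.81e-05) and SYVN1, a ligase of the endoplasmic reticulum, by 1.27 (3.78e-05). SYVN1 had 19.4 FPKM in pH 6.3 and 24.6 FPKM in pH 7.4 at 4 h, and 69.8 and 21.5 FPKM at 52 h. MAFG, NFE2L2 and VCP were also higher (0.90, 0.42 and 0.24). NGLY1, SEL1L and NFYA were not called.

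Of 10 reported genes of proteasome-bound deubiquitinases, a ligase and shuttle factors, 2 were higher and 2 lower. The shares of all genes, for this and the next lists, were 22.4% higher and 37.3% lower over all hours. ZFAND2A, an arsenite-inducible proteasome partner, averaged 31.5 ± 10.7 FPKM in pH 6.3 and 14.9 ± 2.15 FPKM in pH 7.4 (log2 0.95, limma adjusted p = 4.23e-04), and ZFAND5 110 ± 10.3 and 79.6 ± 8.53 FPKM (0.47, 1.08e-04). The ligase UBE3C (-0.36) and the deubiquitinase USP14 (-0.25) were lower. The USP14 call was lost without the 12 or 16 h pair (limma adjusted p of 0.0524 and 0.0501). UCHL5, RAD23B, DDI2 and the ubiquilin genes UBQLN1, UBQLN2 and UBQLN4 were not called over all hours. Within 28 to 52 h DDI2 was called higher (0.485, limma adjusted p = 4.19e-04), where 27% of all genes were higher and 36.4% lower. Of 4 reported ubiquitin genes and ubiquitin-activating enzymes RPS27A was higher (0.27). UBA1 and UBA6 were not called. UBB averaged 359 ± 89.0 FPKM in pH 6.3 and 426 ± 97.6 FPKM in pH 7.4 (log2 -0.25, limma adjusted p = 0.23). It was not called at 28 to 52 h (0.22) and was lower at 4 to 24 h (-0.79, limma adjusted p = 0.0044). UBB and RPS27A hold near-identical ubiquitin coding sequence, so their values are uncertain. Of 6 reported interferon regulators and peptide-loading genes TAP1 was higher (0.94, limma adjusted p = 1.37e-05) and NLRC5 (-1.09, 2.13e-04) lower. TAP2, TAPBP, IRF1 and B2M were not called over all hours. TAP1 averaged 15.9 ± 5.20 FPKM in pH 6.3 and 7.49 ± 1.53 FPKM in pH 7.4 and was higher at 13 of 13 hours.

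The GC content of the members' transcripts ran from 39.5% to 62.0%. It was 52.5% at the median in the 10 members called higher over all hours and 45.1% in the 11 called lower. Across the 46 members its correlation with the effect of acid was 0.24, given as a description, since the genes share their libraries. In GENCODE 29 12 members have named pseudogenes, 32 in all, and 19 share exon sequence with a gene on the other strand, which counting without strand would not separate.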

How the data were processed

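The authors deposited 1 table of FPKM values for 26 libraries from a stranded kit for polyadenylated RNA, per the labels' protocols. The submitters' processing notes name STAR, Cufflinks and the build hg38. Tool versions, annotation release and whether counting used strand: not given in the sources used here. Of 19806 rows, 19545 matched GENCODE 29 identifiers, which gave coordinates and GC content. A symbol on several rows was represented by its row of highest mean. Total counts are not given. Depth was estimated from low values of 1831 genes with a single transcript, where 87.4% to 94.0% of values up to 3.5 fragments lay within 0.1 of a whole number. FPKM are not counts, so no count test was used.

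Values were tested as log2(FPKM + 1) for 11838 genes, each reaching 1 FPKM on average, with limma 3.58.1 (R 4.3.3, eBayes, trend), Benjamini-Hochberg adjusted, threshold 0.05. On this scale the change of low genes is understated. The hour was a block in tests between media, because both media of an hour were harvested together, per the labels' protocols. Tests were run on simulated data first. The 28 to 52 h minus 4 to 24 h tests did not pair the hours harvested together. A fit with the harvest round as a block, chosen after seeing the data, was an alternative. Promoters came from RefSeq tables. Members, classes and lists were chosen with earlier results of these data known. Every member is named, with full values for those with the largest effects in a class, the catalytic subunits, all PSME and PSMG genes and members whose effect differed between windows, and in the other lists up to 3 genes in each direction. Some genes of those lists are not reported here, and the counts given for 3 of the lists leave them out.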

Additional observations from a re-analysis of the deposited data

Results flagged for a closer look

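In 22 of the genes described above the effect of acid differed between the hour windows in a direct test (limma interaction of pH with the window, adjusted p under 0.05), as 28 to 52 h minus 4 to 24 h on the log2 scale. In the core these were PSMA5 (1.01), PSMB7 (0.59), PSMB3 (0.58), PSMB5 (0.51), PSMB2 (0.43) and PSMB1 (0.41). In the regulatory particle they were PSMC4 (1.12), PSMD5 (1.02), PSMD3 (0.91), PSMD4 (0.75), PSMD6 (0.75), PSMC2 (0.69), PSMD12 (0.64), PSMC1 (0.50) and PSMD13 (0.48). In the other lists the difference was positive for IRF1 (1.505), ZFAND2A (1.10), UBB (1.01), UCHL5 (0.83), KIAA0368 (0.48) and UBA6 (0.48) and negative for B2M (-0.43).

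IRF1, the transcription factor that drives interferon-inducible proteasome genes, was not called at 28 to 52 h (0.53, limma adjusted p = 0.10) and was lower at 4 to 24 h (-0.98, 0.015). B2M, the light chain of class I molecules, was lower within 28 to 52 h (-0.34, limma adjusted p = 0.0083). Of the 15 members, PSMB2, PSMB3, PSMB5, PSMC1 and PSMD13 lost the call in at least 1 fit with a single pair of libraries left out, PSMB2 without the 12, 16, 20, 32, 36, 40, 44, 48 or 52 h pair, PSMB3 without 12, 16, 32 or 44 h, PSMB5 without 4, 8, 12, 16, 32, 36, 40, 44, 48 or 52 h, PSMC1 without 8, 12, 16 or 44 h, and PSMD13 without 8, 12, 16, 36, 40 or 44 h. The adjusted p in those fits lay between 0.0502 and 0.0979 by limma. With the round of harvest as a block, PSMB1, PSMB2, PSMB3, PSMB7, PSMC1, PSMD6, PSMD12, PSMD13, UCHL5, KIAA0368, UBA6 and B2M were not called (limma adjusted p of 0.0593 to 0.105).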

How the results depend on the processing

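Pseudocounts of 0.1 and 0.5, a minimum mean of 5 FPKM and summed rows kept each count of members called within 1.5 times. For single genes 15235 of 16354 alternative values kept their direction and side of the threshold, 792 lost a call, 325 gained 1 and 2 reversed. PSMC2 was at -0.34 within 4 to 24 h and PSMD5 at 0.35 within 28 to 52 h, opposite to their effects over all hours (0.03 and -0.12), which were not called. Members called higher over all hours numbered 10, against 19 within 28 to 52 h, 1 within 4 to 24 h and 20 under the GC correction. Within 4 to 24 h (1 higher, 14 lower) the counts were 0 and 9 with no filter, 4 and 9 under upper-quartile scaling, 5 and 5 under the GC correction, 0 and 1 without the 8 and 12 h pairs, and 0 and 0 without the 7 hours of doubtful libraries (1 and 7 at an unadjusted p under 0.05). Without a trend in limma 8 were lower there. The difference between windows (15 positive, 0 negative) gave 5 without the 8 and 12 h pairs, 0 without the 7 hours, and 1 negative under the GC correction. The slope (18 positive, 1 negative) gave 11 and 0, 2 and 0, and under the GC correction 2 negative. Within pH 6.3 (8 higher, 6 lower) the later hours gave 14 higher at a fixed column sum, 11 lower under the GC correction, 5 and 2 without the 8 and 12 h pairs, and 1 and 0 without the 7 hours. Within pH 7.4 (15 lower) they gave 9, 29, 5 and 0 under the same alternatives. The cause of these shifts was not tested, except that leaving out hours leaves fewer libraries. The GC correction, the harvest block and the fit without the 8 and 12 h pairs were chosen after seeing the data.

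Without 1 pair of libraries at a time, members called higher and lower ran from 10 to 12 and 9 to 12 over all hours, 17 to 23 and 7 to 10 within 28 to 52 h, 0 to 4 and 5 to 17 within 4 to 24 h, 10 to 20 and 0 to 1 for the difference between windows, 13 to 19 and 0 to 1 for the slope, 7 to 11 and 5 to 8 within pH 6.3, and 0 and 6 to 23 within pH 7.4. In the fit without the hour as replicate block, the counts were 12 and 11 over all hours, 23 and 9 within 28 to 52 h, 2 and 16 within 4 to 24 h, 19 and 0 for the difference between windows, and 19 and 1 for the slope. With the harvest round as replicate block the counts were 7 and 0 for the difference between windows and for the slope, which coincide there because paired hours lie 24 h apart, 8 and 6 within pH 6.3, and 0 and 14 within pH 7.4. PSMD11 lost its call without the hour as block (adjusted p = 0.18 by limma).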
